A study of Apis cerana with 76 samples.

Results

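Drone testis of the Asian honey bee, Apis cerana, was compared with the ovary of the worker and the ovary of the queen through their microRNAs. The organ count table lists 171 mature miRNA entries, and the 101 entries with at least 50 CPM (the entry's count per 1000000 counts in its column) in testis or in an ovary were used. The series sequenced small RNA from organs and from development stages of wild type bees in 76 libraries. The 3 gonads hold 6 of these, 2 each from drone testis, worker ovary and queen ovary, and no age, treatment or colony is given for any of them. The table gives 1 pooled column per organ, so each gonad level is the authors' value for its 2 libraries and has no replicate error. Nothing in the labels says that the 2 libraries of an organ came from separate bees.

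MicroRNAs are short RNAs that guide a silencing complex to messenger RNAs, mainly by pairing through bases 2 to 8, the seed. In the insect gonad they are known for roles in the upkeep of germline stem cells, in follicle cell movement and in the supply of maternal RNA to the egg. The drone is a haploid male whose testis makes sperm, the queen is the laying female with large active ovaries, and the worker carries small ovaries that are usually inactive. In a whole organ, a lower level may mean fewer cells of a type or less RNA per cell, and these cannot be told apart.

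The mature sequences below are those of the authors' table, 5′ to 3′, with the seed in capitals. The first set holds abundant testis entries that stood far above both ovaries, none of which shares a seed with another.
miR-190-5p: aGAUAUGUuugauauucuugguug
miR-2765-5p: uGGUAACUccaccaccguuggc
miR-3718a-3p: uCCCCUGUccugucccgauag
miR-3718c-5p: uAUUGGGUcaggauagggcag
miR-133-3p: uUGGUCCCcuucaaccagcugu

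The next set shows a seed family whose members took different places between testis and ovaries.
miR-279a-3p: uGACUAGAuccacacucauu
miR-279b-3p: uGACUAGAucgaaauacucguc
miR-279c-3p: uGACUAGAgucacacucgucc
miR-279d-3p: uGACUAGAuccacacucaucc

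Another pair has 1 seed and opposite places on the scale used here.
miR-29b-5p: uAGCACCAuuugaaaucaguac
miR-995-3p: uAGCACCAcauuauucagcuug

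The last set is the miR-92 family, each member of which was lower in testis than in both ovaries on the scale used here.
miR-92a-3p: uAUUGCACuugucccggccu
miR-92b-3p: aAUUGCACccgucccggccuga
miR-92c-3p: aAUUGCACucgucccggccugc

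Counts summed to 4933788 in testis, 534147 in worker ovary and 3796539 in queen ovary over all entries. The worker ovary column is thus the shallowest, and 3 counts in it were worth 3.62 scaled CPM. Levels below are CPM scaled by TMM factors computed over the 11 organ columns, and ratios are differences of log2(scaled CPM + 1). Intervals are exact 95% intervals on the counts and cover counting error only. An organ was called higher or lower than another at 2-fold or more, with no test, since each side is 1 column.

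Testis was at least 2-fold apart from worker ovary in 73 of 101 entries (72.3%), 39 higher and 34 lower. It was at least 2-fold apart from queen ovary in 70 entries (69.3%), 31 higher and 39 lower. The ovaries of the worker and the queen were themselves this far apart in 74 entries (73.3%), the worker's higher in 29 (28.7%) and lower in 45 (44.6%). The split depends on the scaling. With column totals, testis was higher than queen ovary in 47 entries and lower in 31, and worker ovary was higher than queen ovary in 44 and lower in 32. With TMM factors computed after the filter on low counts, a scaling added after seeing the data, testis was higher than worker ovary in 51 entries and lower in 24. The median absolute log2 ratio was 2.08 for testis against worker ovary, 2.21 for testis against queen ovary and 2.45 between the ovaries. By these counts the ovaries were about as far from each other as either was from testis.

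Testis stood above both ovaries in 16 entries (15.8%) and below both in 19 (18.8%). The 16 higher entries made up 33.8% of the testis counts, 1.73% of worker ovary counts and 1.13% of queen ovary counts. The 19 lower entries made up 1.81% of testis counts, 18.7% in worker ovary and 14.0% in queen ovary. Both sets were picked on these same columns, so the direction of these shares follows from the rule. Testis and queen ovary shared a level apart from worker ovary in 18 entries, 13 higher (12.9%) and 5 lower (4.95%). Testis and worker ovary shared a level apart from queen ovary in 14 entries, 4 higher (3.96%) and 10 lower (9.9%). A further 18 entries lay between the ovaries, 11 were within 2-fold of both, and 5 were apart from 1 ovary while the ovaries were alike. The entries above both ovaries numbered 23, and those below both 16, with column totals, and 22 and 14 with TMM after the filter.

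**Figure D1:**
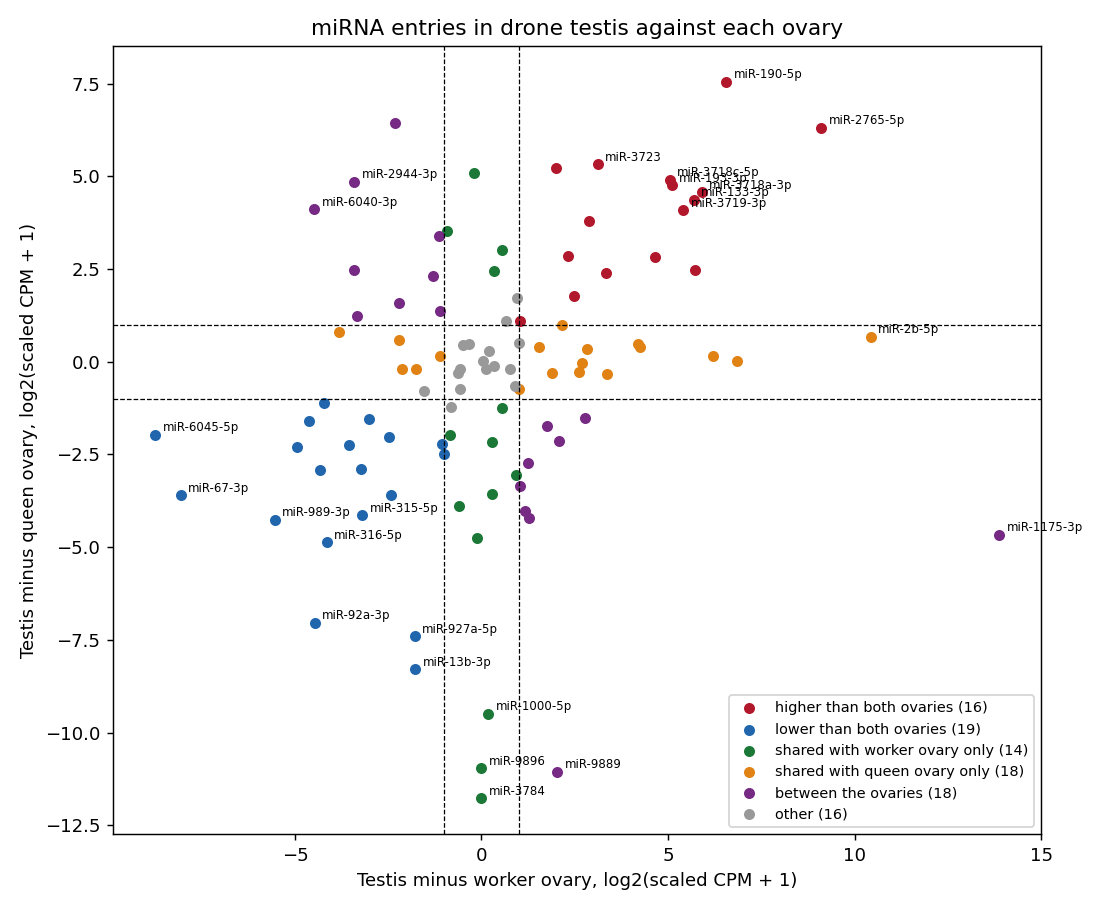
Each point is 1 of the 101 entries, placed by its difference in log2(scaled CPM + 1) between testis and worker ovary (x axis) and between testis and queen ovary (y axis); dashed lines mark 2-fold and colours the classes. The 16 entries above both ovaries sit at the upper right, led by miR-190-5p and miR-2765-5p, and the 19 below both at the lower left.

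The entry with the largest share of testis counts was miR-184-3p, known in flies for its need in the female germline. It took 14.8% of counts in testis, 27.4% in worker ovary and 28.95% in queen ovary. The next 4 in testis were miR-190-5p at 10.2%, let-7-5p at 8.44%, miR-2765-5p at 5.995% and miR-276-3p at 5.99%. Of these, miR-190-5p and miR-2765-5p were each at most 0.111% of the counts of either ovary.

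miR-190-5p, which in vertebrates lies within a talin gene, was at 67862 scaled CPM in testis, 716 in worker ovary and 361 in queen ovary. The log2 ratio was 6.56 against worker ovary and 7.55 against queen ovary. Its level in the other 8 organs ran from 216 to 1509.9 scaled CPM, so testis stood apart from every other organ column and not from the ovaries alone.

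miR-2765-5p, an insect miRNA, was at 39804 scaled CPM in testis, 71.1 in worker ovary and 501 in queen ovary. Its log2 ratios were 9.11 and 6.31. One other organ was also high, the worker ventriculus at 26396 scaled CPM, while the drone ventriculus was at 4.36.

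Several entries carry numbers given to miRNAs that were described in honey bees. miR-3718a-3p was at 23822 scaled CPM in testis, 399 in worker ovary and 1001 in queen ovary. miR-3718c-5p was at 13452, 407 and 449.7 in the same order. Both were highest in testis among the 11 organ columns, with the other 8 organs at no more than 1065 for miR-3718a-3p and 600.3 for miR-3718c-5p. miR-3715-5p was at 19341 scaled CPM in testis, 774 in worker ovary and 2719 in queen ovary. miR-3719-3p was at 552, 12.1 and 31.7.

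miR-133-3p is a muscle miRNA of vertebrates and flies. It was at 11772 scaled CPM in testis, 227 in worker ovary and 567 in queen ovary, with log2 ratios of 5.69 and 4.37. miR-1-3p, the other miRNA of the muscle list, went the other way, at 5471 scaled CPM in testis, 29311 in worker ovary and 65718 in queen ovary. Testis had the lowest miR-1-3p of the 11 organ columns, and the highest miR-133-3p.

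miR-193-3p, which in insects is encoded beside miR-2788, was at 158 scaled CPM in testis, 3.62 in worker ovary and 4.88 in queen ovary. It rests on 3 counts in worker ovary, and the interval of the log2 count ratio ran from 3.90 to 7.73. Worker brain was higher than testis, at 319.8. miR-3723 was at 39 scaled CPM in testis and 3.62 in worker ovary, again 3 counts, with an interval of 1.87 to 5.72. It had no count in queen ovary, and testis was at least 37.3-fold higher than a floor of 3 counts in that column.

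The entries with the miR-279 seed took different places. miR-279d-3p was at 10347 scaled CPM in testis, 1413 in worker ovary and 743 in queen ovary, and testis was the highest organ. miR-279a-3p, which shares 19 bases with it, was at 456, 989 and 410.3, and miR-279b-3p was at 7868, 17369 and 748. miR-996-3p, another entry with the same seed, was at 136 scaled CPM in testis, 147 in worker ovary and 3702 in queen ovary. In flies this seed is known for work in sensory neuron formation and in follicle cells. How reads were divided between miR-279a-3p and miR-279d-3p is not known, so their separate levels are uncertain.

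The other entries above both ovaries were miR-29b-5p, miR-34-5p, miR-263a-5p, miR-3770-5p, miR-210-3p and miR-3477-5p. miR-34-5p, abundant in mammalian sperm-forming cells and linked to ageing in flies, was at 17539.8 scaled CPM in testis, 1736 in worker ovary and 3347 in queen ovary. The other 8 organs held 5620.3 to 15267 scaled CPM of miR-34-5p, so the ovaries were the low columns here. miR-3477-5p was the nearest to the 2-fold limit, at log2 1.03 and 1.10. Testis was the highest of the 11 organ columns for 13 of the 16 entries, against 16 of all 101 (15.8%). The 16 were picked for exceeding both ovary columns, so a larger share among them follows in part from the rule.

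**Figure D2:**
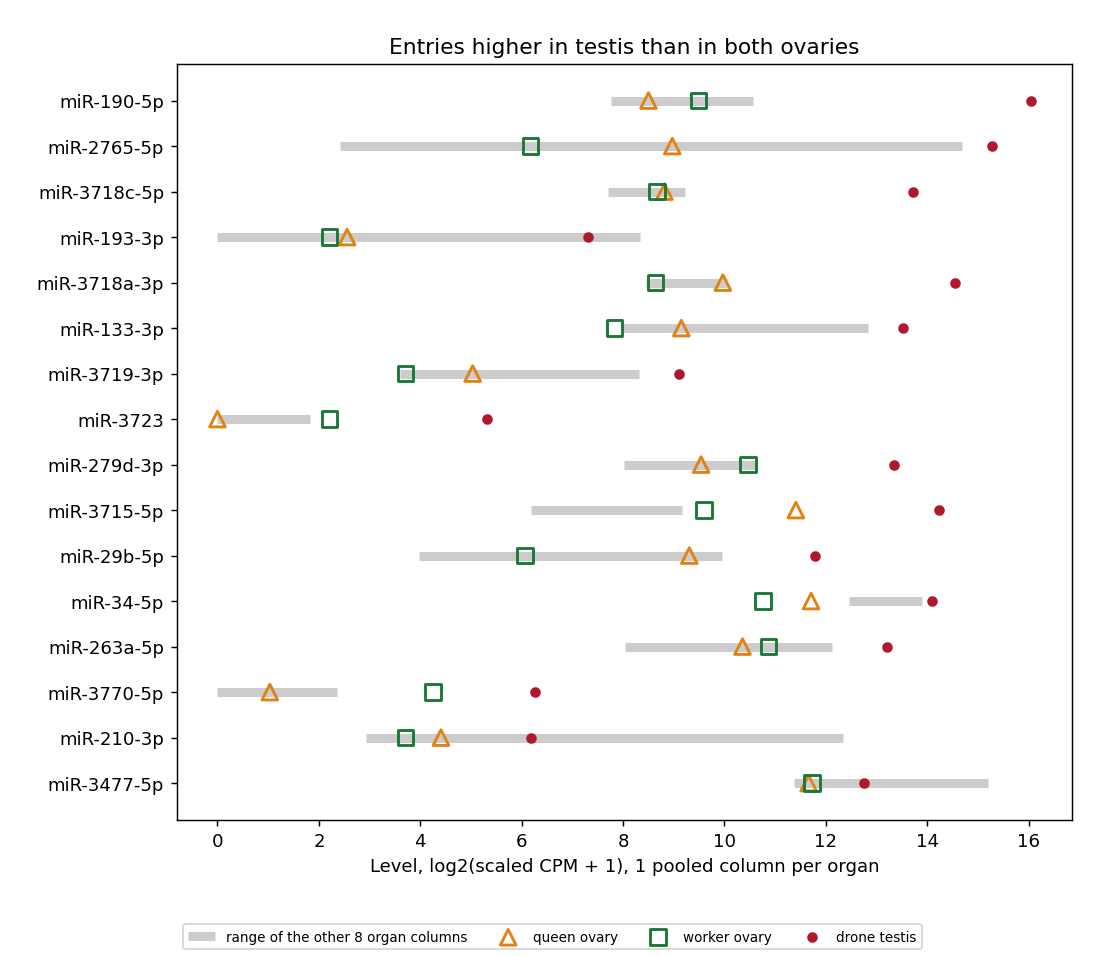
Levels of the 16 entries higher in testis than in both ovaries, as log2(scaled CPM + 1); the filled circle is testis, open symbols are the ovaries and the grey bar is the range of the other 8 organ columns. For miR-190-5p, miR-3718a-3p and miR-3718c-5p testis lies well to the right of the bar, while for miR-193-3p, miR-210-3p and miR-3477-5p it lies inside it.

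Drone and worker could also be compared in brain, ventriculus and rectum. Of the 16, 5 were at least 2-fold higher in drone brain than in worker brain, 2 in drone ventriculus and 1 in drone rectum, against 22 (21.8%), 10 (9.9%) and 12 (11.9%) of all 101. The entry higher in drone rectum, miR-3770-5p, rests on 1 count there and 0 in worker rectum. It is also among the 5 of the brain, on 14 counts in drone and 1 in worker. Of the 16, those lower in the drone organ numbered 1, 1 and 0, against 19 (18.8%), 15 (14.9%) and 15 (14.9%). In the table of stages, 10 of the 16 had the same sequence under the same name, and 0 of these were at least 2-fold higher in adult drones than in both adult worker columns, against 1 of 54 over all entries. At least 2-fold lower in adult drones than in both were 1 of the 10, miR-3715-5p, and 3 of the 54.

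One test across entries was possible, in which the spread came from organs that have a column from each of 2 kinds of bee. edgeR's quasi-likelihood test of testis against the mean of both ovaries, over 135 entries with 4 residual degrees of freedom, called 1 entry higher (0.741%) and 0 lower (0.0%) with p adjusted by Benjamini-Hochberg and a limit of 0.05. That entry was miR-190-5p, with a log2 difference of 7.65 (SE 0.77, adjusted p = 0.00422). The next were miR-3718a-3p at 5.59 (SE 1.04), miR-3718c-5p at 5.56 (SE 0.97) and miR-133-3p at 5.39 (SE 1.07), with edgeR adjusted p of 0.0552, 0.0552 and 0.0571. At an unadjusted p under 0.05 edgeR gave 13 higher and 8 lower, and DESeq2's Wald test called 9 higher and 20 lower after adjustment. The lone testis column is assumed in this test to vary like the other organs. With scale factors taken before the filter on low counts, a setting tried after the first result was known, edgeR called these 4 entries. Without the worker ovary column it called 20 entries and without the queen ovary column 6, miR-190-5p among them each time.

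Among the 19 entries lower in testis, all 3 members of the miR-92 family were below both ovaries. In flies the family is known for keeping neural stem cells. miR-92a-3p was at 18 scaled CPM in testis, 418 in worker ovary and 2498 in queen ovary. miR-92c-3p was at 585, 18143 and 2889.8, and miR-92b-3p at 1154, 2408 and 5358. The ovary with the higher level was the queen's for miR-92a-3p and miR-92b-3p and the worker's for miR-92c-3p. Testis was not low for the family among other organs: the median of the other 8 was 6.89 scaled CPM for miR-92a-3p, 405 for miR-92c-3p and 170.1 for miR-92b-3p. With TMM after the filter, miR-92b-3p was level between testis and worker ovary.

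miR-989-3p, which in flies is needed for the migration of border cells in the ovary, was at 449 scaled CPM in testis, 20865 in worker ovary and 8695 in queen ovary. Both ovaries exceeded the other 8 organs, whose highest level was 4267. miR-318-3p, a follicle cell miRNA of flies, was at 699.8 scaled CPM in testis, 313 in worker ovary and 11445 in queen ovary. The other 8 organs held at most 29.3 scaled CPM of miR-318-3p. Of these ovary markers, miR-989-3p was thus high in both ovary columns. For miR-318-3p all 3 gonads exceeded the other 8 organs, with queen ovary the highest and worker ovary below testis. Another ovary marker, miR-306-5p, was high in worker ovary, at 13216 scaled CPM. Its levels of 4538 in queen ovary and 3925 in testis were both below the 6730 of drone ventriculus.

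miR-316-5p was at 37.5 scaled CPM in testis, 679.6 in worker ovary and 1130.0 in queen ovary, and testis was the lowest organ. miR-315-5p, an activator of Wingless signalling in flies, was at 78.1, 722 and 1398. miR-9a-5p, which in flies restrains sensory organ precursors, was at 477, 9540.2 and 3619.6. In each of these testis was below both ovaries by a log2 ratio of at least 2.92 in size.

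miR-10a-5p, encoded in the Hox cluster, was at 2189.8 scaled CPM in testis, 20642 in worker ovary and 16194 in queen ovary. The ovaries were close to each other, and testis was the lowest of the 11 organ columns. miR-13a-3p, of a family that in flies represses cell death genes, was at 91.6, 1077 and 439. miR-67-3p had no count in testis, against 264 scaled CPM in worker ovary and 11.2 in queen ovary. Set against a floor of 3 counts, testis was at least 654-fold lower than worker ovary and at least 27.7-fold lower than queen ovary. The table lists the same sequence as miR-307-3p, at 35.7, 16.9 and 371 scaled CPM, so the absence of miR-67-3p from testis is uncertain.

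The remaining entries below both ovaries were miR-79-5p, miR-6045-5p, miR-927a-5p, miR-13b-3p, miR-3732, miR-995-3p, miR-2a-3-3p and miR-750-3p. Of these, only miR-79-5p kept this class in all 5 scaling and pseudocount settings. miR-3732 rests on 12 counts in testis, 53 in worker ovary and 20 in queen ovary, and with column totals it was level with queen ovary. Some were low in testis by unlike margins. miR-13b-3p was at 170.4 scaled CPM in testis, 584 in worker ovary and 53888 in queen ovary. miR-6045-5p was at 3.63, 1985 and 17.1. miR-995-3p, with the seed of miR-29b-5p, was at 31.2, 261 and 93.5, while miR-29b-5p was at 3524, 66.3 and 633. With column totals, miR-995-3p was level between testis and queen ovary. Testis was the lowest of the 11 organ columns for 9 of the 19, against 10 of all 101 (9.9%). The 19 were picked for lying below both ovary columns, so here too a larger share follows in part from the rule.

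**Figure D3:**
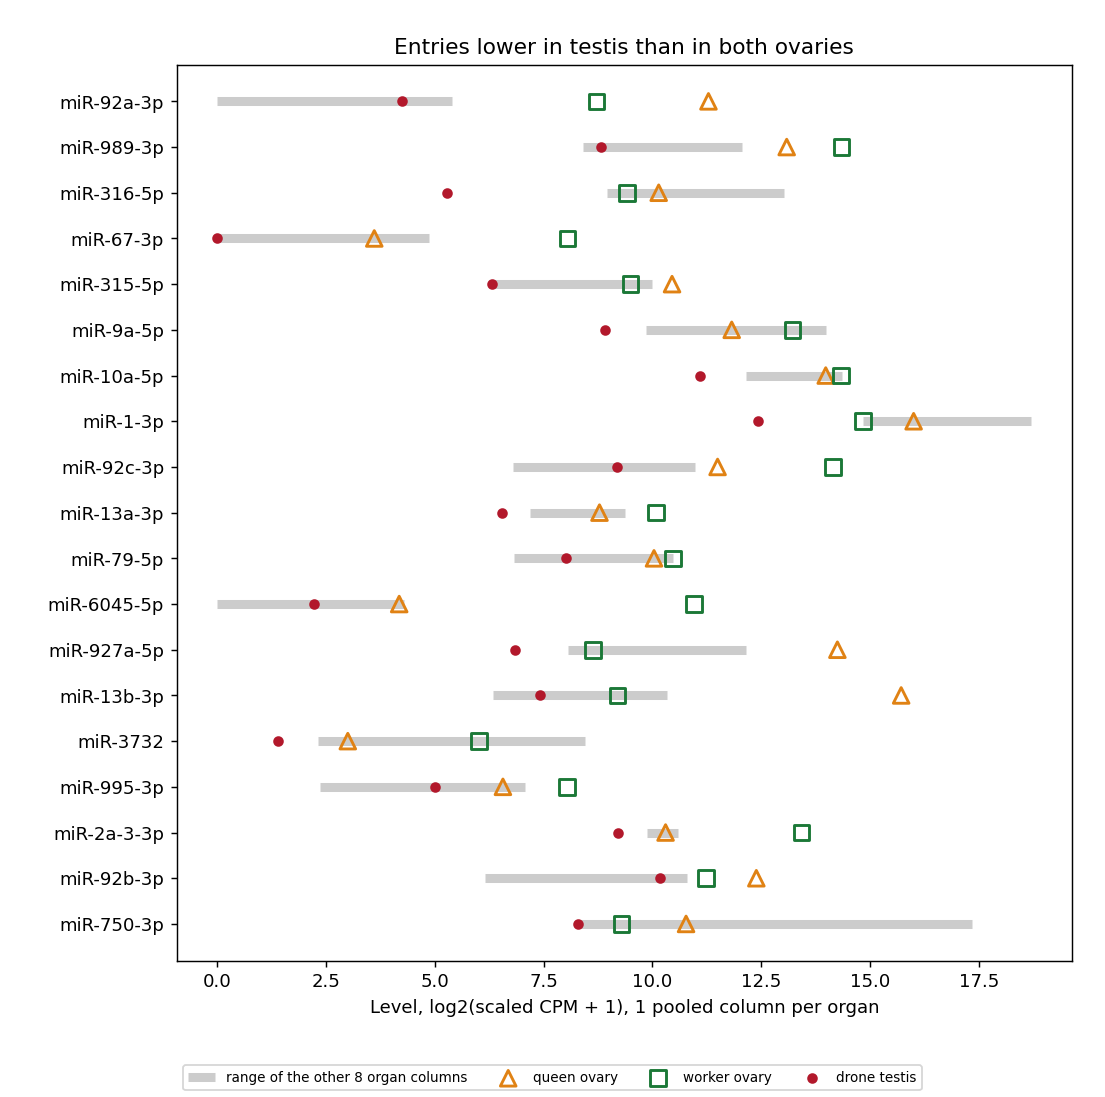
Levels of the 19 entries lower in testis than in both ovaries, as log2(scaled CPM + 1), with testis filled, the ovaries open and the other 8 organs as a grey range. For miR-316-5p, miR-9a-5p, miR-10a-5p and miR-1-3p testis lies to the left of every other organ, and for miR-989-3p and the miR-92 entries the ovaries lie to the right of the bar.

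Testis and queen ovary shared a higher level than worker ovary in let-7-5p, miR-263a-3p, miR-2788-5p, miR-2b-5p, miR-31a-5p, miR-927b-5p, miR-275-3p, miR-252b-5p, miR-993-3p, miR-87a-3p, miR-33-5p, miR-3786-3p and miR-6044-5p. let-7-5p, which times development, was at 56028 scaled CPM in testis, 8723 in worker ovary and 57633 in queen ovary. miR-31a-5p was at 15831, 869 and 11451. miR-927b-5p was at 544, 27.7 and 409.9. In these the worker ovary was the low gonad and the other gonads nearly level on this scale. The 13 entries depend on the scaling, and 4 of them kept this class in all 5 scaling and pseudocount settings, let-7-5p, miR-993-3p, miR-87a-3p and miR-33-5p. With column totals, miR-31a-5p, miR-927b-5p, miR-263a-3p, miR-2788-5p, miR-275-3p, miR-252b-5p, miR-2b-5p and miR-6044-5p were above both ovaries. Of these, miR-2b-5p and miR-6044-5p were above both in 3 of the 5 settings. miR-3786-3p has the sequence of miR-3786-5p, which was apart from 1 ovary, so its class is uncertain.

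miR-263a-3p was at 7319 scaled CPM in testis, 62.7 in worker ovary and 7277 in queen ovary. It shares 19 bases with miR-263a-5p, which was above both ovaries in testis at 9400.0, 1870.2 and 1310.4, and how reads were divided between them is not known. miR-2788-5p was at 603, 7.23 and 543 scaled CPM. miR-993-3p, also of the Hox cluster, was at 1598, 153 and 2003.

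miR-2b-5p was at 1379.5 scaled CPM in testis and 870.5 in queen ovary, and had no count in worker ovary. Testis was at least 382-fold higher than a floor of 3 counts there. Its sequence is the reverse complement of the miR-2a entries over 21 bases. Those 3 entries share 1 sequence and yet have unequal counts, and they fell into different classes: miR-2a-3-3p below both ovaries, miR-2a-2-5p level with queen ovary and miR-2a-5p between the ovaries.

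Levels shared by testis and queen ovary and lower than in worker ovary were those of miR-6049, miR-2a-2-5p, miR-306-5p, miR-277-3p and miR-279a-3p. miR-277-3p, which controls amino acid breakdown in flies, was at 431 scaled CPM in testis, 1874 in worker ovary and 491 in queen ovary. miR-306-5p was at 3925, 13216 and 4538. miR-6049 rests on 19, 41 and 3 counts. Of the 5, miR-277-3p kept this class in all 5 settings. In flies miR-34, miR-277 and miR-317 are made from 1 cluster, and in these gonads they took 3 different places, since miR-317-3p lay between the ovaries at 529, 1312 and 106 scaled CPM.

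Testis and worker ovary shared a higher level than queen ovary in miR-3791-3p, miR-11-3p, miR-6037-3p and miR-3720-5p. miR-3791-3p was at 27677 scaled CPM in testis, 52856 in worker ovary and 2397 in queen ovary. miR-11-3p, which limits cell death in flies, was at 1227, 833 and 151. miR-3720-5p was at 381, 437 and 10.1. All 4 were level between testis and worker ovary to within a log2 ratio of 0.93 in size. miR-3791-3p and miR-3720-5p kept this class in all 5 settings, and the other 2 were above both ovaries with TMM after the filter.

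The shared levels lower than in queen ovary were those of bantam-3p, miR-184-3p, miR-100-5p, miR-137-3p, miR-2796-3p, miR-125-5p, miR-1000-5p, miR-996-3p, miR-3784 and miR-9896. bantam-3p, which promotes growth and maintains germline stem cells in flies, was at 7645 scaled CPM in testis, 4025 in worker ovary and 63808 in queen ovary. miR-100-5p was at 1132, 1733 and 16862, and miR-125-5p at 586, 481 and 6953. In many animals both are transcribed with let-7, and here let-7-5p was as high in testis as in queen ovary while its partners were not. miR-1000-5p had 1 count in testis and 0 in worker ovary, against 818 scaled CPM in queen ovary, with an interval of the log2 count ratio of testis to queen ovary from -17.87 to -10.09. miR-3784 and miR-9896 had no count in testis or worker ovary. Against a floor of 3 counts, testis was at least 8687-fold lower than queen ovary for miR-3784 and at least 4934-fold lower for miR-9896. Of the 10 entries, 5 kept this class in all 5 settings, miR-100-5p, miR-1000-5p, miR-996-3p, miR-3784 and miR-9896. With column totals, miR-184-3p and miR-137-3p were within 2-fold of both ovaries.

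**Figure D4:**
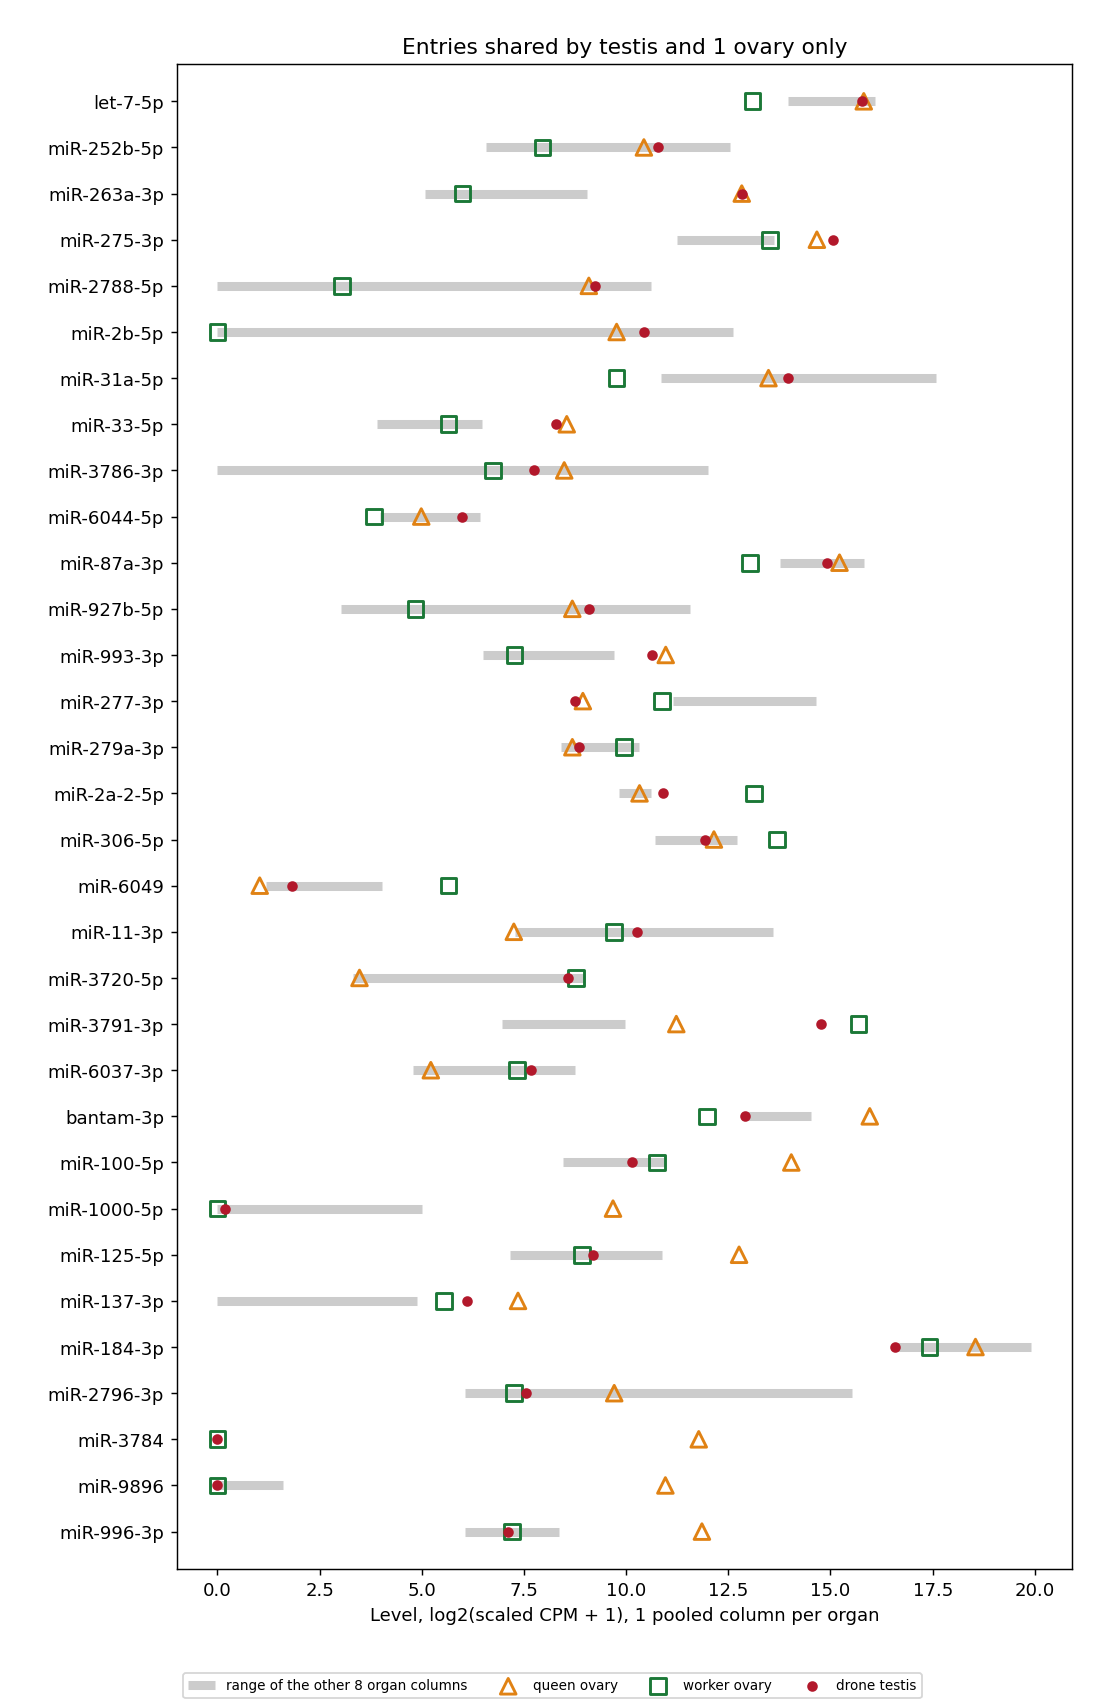
Levels of the 32 entries that testis shared with 1 ovary only, as log2(scaled CPM + 1), with testis filled, the ovaries open and the other 8 organs as a grey range. The testis circle falls beside the queen triangle in the upper rows, as for let-7-5p and miR-263a-3p, and beside the worker square in the lower rows, as for miR-125-5p and miR-996-3p.

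Among the entries between the ovaries were miRNAs of a short list of egg-abundant entries, chosen on the stage columns of this series and matched by name, since miR-3791-3p has another sequence there. miR-2944-3p was at 7225 scaled CPM in testis, 76512 in worker ovary and 249 in queen ovary. With miR-279b-3p and miR-3791-3p, all 3 found entries of that list were higher in testis than in queen ovary, and testis was second to worker ovary among the 11 organs for each. miR-9c-5p followed the same order, at 3995, 20050.4 and 45.4. Queen ovary was thus lower than testis and worker ovary for these 4 entries, and this does not extend to egg miRNAs as a whole. It still exceeded the other 8 organs for miR-3791-3p, at 2397 against at most 1005 scaled CPM. The same held for miR-279b-3p, at 748 against at most 526. For miR-2944-3p and miR-9c-5p queen ovary lay within the range of the other 8. Of 54 entries with the same sequence in both tables, 19 were highest in the egg among the egg and adult columns. Of these 19, 6 were below both ovaries in testis and 3 above both, against 11 and 10 of all 54. For the 6, queen ovary was above testis, unlike in the 4 entries above. The 19 were not counted by whether queen ovary was the lowest gonad. miR-10a-5p was 1 of the 6. The other 8 organs held at most 329 scaled CPM of miR-2944-3p.

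miR-1175-3p, a gut miRNA of mosquitoes, had the largest log2 ratio of testis to worker ovary among the 101 entries. It was at 15014 scaled CPM in testis and 383119 in queen ovary, with no count in worker ovary. Testis was at least 4153-fold higher than a floor of 3 counts in worker ovary. The entry miR-750-3p, its neighbour in insect genomes, was at 309.8, 625 and 1748 scaled CPM in the gonads and at 165989 in worker ventriculus, where miR-1175-3p had no count.

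**Figure D5:**
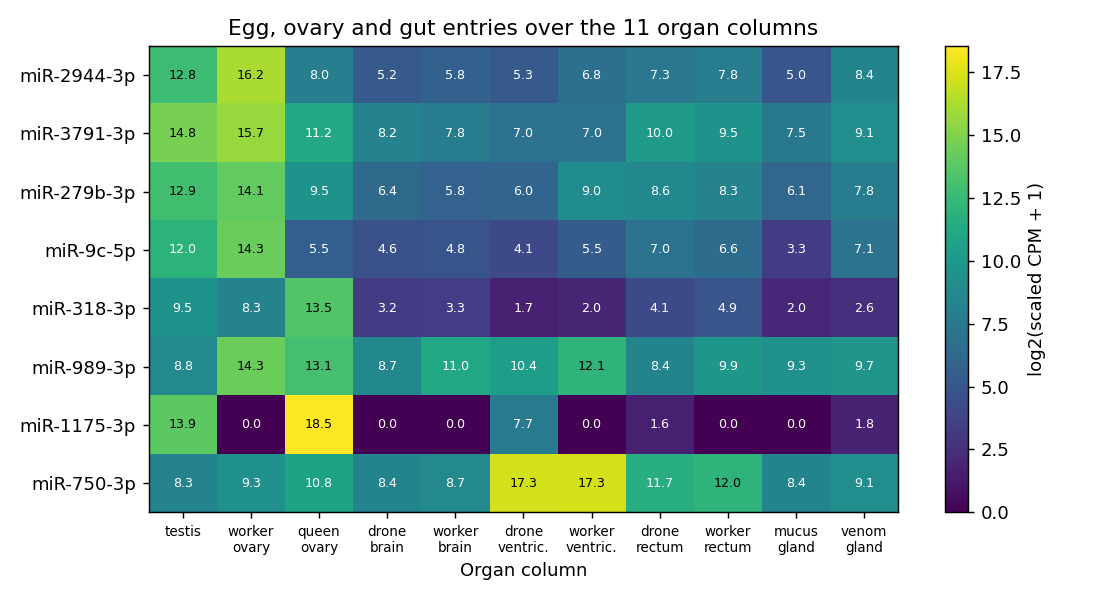
Levels of 8 entries in the 11 organ columns as log2(scaled CPM + 1), printed in each cell and coloured by level. miR-2944-3p, miR-3791-3p, miR-279b-3p and miR-9c-5p are high in testis and worker ovary, miR-1175-3p in testis and queen ovary, and miR-750-3p in the ventriculus columns.

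Lists of miRNAs grouped by known tissue or gene cluster were read against all 101 entries, of which 15.8% were above and 18.8% below both ovaries, with median log2 ratios of 0.20 against worker ovary and -0.19 against queen ovary. In lists of this size, 0 or 1 entry in a class is close to those shares. Of 19 miRNA numbers known from fly testis, 0 were found in the table. With no entry listed for them, their levels in these gonads are not known. Of the 6 ovary and germline entries, 0 were above both ovaries and 1 was below both, with medians of -0.26 and -2.51. The 6 neural entries used had 1 above both and 0 below, with medians of 1.16 and -1.03. The 5 gut and excretory entries had 0 and 1, with medians of -0.59 and -0.73.

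Among gene clusters, the 3 entries of the let-7 complex had none above or below both ovaries and medians of 0.28 and -3.57. The 7 entries of the mir-71/mir-2 cluster had 0 above and 3 below both, with medians of -2.20 and 0.46. They include the 3 miR-2a entries of 1 sequence, and miR-13b-3p and miR-2a-3-3p left the class below both with TMM after the filter. The 3 entries of the miR-9 family had 0 and 2, with medians of -2.47 and -2.03. The 2 Hox cluster entries had 0 and 1, with medians of 0.07 and -1.61. The 3 entries of the group of miR-12-5p, miR-283-5p and miR-3477-5p had 1 and 0, with medians of -0.34 and 0.49. The 7 growth and metabolism entries had 0 and 0, with medians of 0.65 and 0.03, and included miR-14-3p, at 12323 scaled CPM in testis, 12044 in worker ovary and 12111 in queen ovary. The 3 miR-92 entries had medians of -4.46 and -2.30.

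The limits used here pass close to some entries. miR-3723 at 58.8 CPM and miR-6049 at 76.8 CPM of their highest gonad column were just inside the 50 CPM minimum, and miR-971-5p at 48.7 and miR-9884-3p at 46.8 just outside. At the 2-fold limit, miR-750-3p was just inside at a log2 ratio of -1.01, and miR-6044-5p just outside at 0.99.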

How the data were processed

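Organs of wild type bees were dissected and small RNA libraries were made from total RNA, per the labels' protocols. bcl2fastq and kallisto are named in the submitters' processing notes, and their versions, settings and the reference build are not given in the sources used here. The deposited table holds whole-number counts per miRNA entry in 1 column per organ, and whether a column is the sum or the mean of its 2 libraries is not stated. Reads per library were not used here, since their names could not be tied to single samples. Each deposited entry has its sequence and a length in bases, another value taken as given.

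Levels were scaled by edgeR's TMM factors from all 171 entries over 11 organ columns. Ratios used a pseudocount of 1 CPM. The planned test used edgeR 4.0.16 in R 4.3.3, with filterByExpr (minimum count 10), then TMM on the 135 entries kept, and 1 mean per organ kind. Under these factors the log2 ratio to worker ovary is 0.85 higher, and that to queen ovary 0.38 higher, than on the scale of the levels. The order of filter and TMM was not set in the plan: this order was run first and is reported, and the reverse was tried once its 1 call was known. DESeq2 1.42.0 served as an alternative. The test was also run on simulated counts, drawn with the same mean for both ovary columns and the same spread for every entry. The real ovary columns differed in most entries, so these runs do not show how well the test works here. Python 3.11.15, pandas 2.3.3 and scipy 1.17.1 were used.

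Values were given for up to 10 entries in each direction against both ovaries, up to 6 per shared class, the 5 largest in testis and list members, with a few others chosen after their values were seen. Members and lists were chosen with earlier results of these data known. Counts without unique molecular identifiers are not independent molecules.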

Additional observations from a re-analysis of the deposited data

How the results depend on the processing

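No paired analysis was possible because the columns pool the libraries and carry no replicate numbers, and for the same reason no single library could be left out. Scaling moves the ratios: relative to the levels used, column totals shift testis against queen ovary by 0.99 (log2), giving 23 entries above and 16 below both ovaries, and TMM after the filter, added after seeing the data, shifts testis against worker ovary by 0.85, giving 22 and 14. Of the 16 entries above both ovaries, 15 kept their class in all 5 scaling and pseudocount settings (not miR-3477-5p), and of the 19 below both, 11 did. Of the shared classes, 4 of 13 and 1 of 5 with queen ovary, and 2 of 4 and 5 of 10 with worker ovary, kept their class. None of the 5 settings was a change of the TMM reference column alone, which was worker rectum for the levels used. With other references, testis against worker ovary shifted by -0.185 (drone rectum) to 1.049 (worker ventriculus). Testis against queen ovary shifted by -0.205 (drone ventriculus) to 0.667 (drone mucus gland). The largest of these shifts exceeds the 2-fold limit, and the stability of the classes under them was not tested. The entries below both numbered 11 at a 4-fold limit. With no filter on low values, 24 entries were shared with worker ovary only and 32 with queen ovary only. The median log2 ratio of testis to queen ovary changed sign, from -0.19 to 0.81 with column totals, 0.35 with column totals without miR-1175-3p (added after seeing the data) and 0.19 with TMM after the filter. No named entry called at 2-fold or by edgeR turned to a 2-fold or larger difference in the other direction.

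edgeR's 1 call depends on the setting. It called 4 entries with column totals, 4 with same-sequence entries joined, 4 without the mucus gland and venom gland columns, and 4 with TMM before the filter, the order tried after the first result was known. It called 20 (11 higher, 9 lower) without the worker ovary column and 6 without the queen ovary column, where ovary is also a lone column. DESeq2's Wald test called 29. DESeq2 size factors, no filter on low counts and leaving out miR-1175-3p gave 1 each. miR-190-5p passed in each of these 10 alternatives, with edgeR or DESeq2 adjusted p from 1.73e-19 to 0.018. The cause of the other calls' gain or loss was not tested. The depth of worker ovary limits ratios below about 3.62 scaled CPM there.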

Other observations

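Some entries were present in few organ columns and nearly absent from the rest. miR-9889 had 24912 counts in queen ovary, 23 in testis and 0 in worker ovary, and at most 15.5 scaled CPM in the other 8 organs. miR-3784 had 10052 counts in queen ovary and 0 in testis, worker ovary and the other 8 organs. miR-2b-5p was at 6316 scaled CPM in worker brain and at 0 in drone brain, beside its 1379.5 in testis. No explanation was tested for these values.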
